A study of Rattus norvegicus with 9 samples.

Results

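The genes described here encode the subunits of the proteasome, its activators and inhibitor, and the chaperones that assemble it. They are the protein-coding genes whose symbol is Psma, Psmb, Psmc, Psmd, Psme, Psmf or Psmg followed by a number, which took 49 of the 37991 genes in the deposited count table. RNA was sequenced from the medial prefrontal cortex (mPFC) of Wistar Kyoto rats, an inbred strain with high stress reactivity, on day 15. Rats of the K4 group received K4, a compound known here only by its code, for 7 days by the intravenous route through a cannula. Rats of the Ketamine group received ketamine, an NMDA receptor antagonist, for 7 days under the skin, and Control rats were left untreated. Both compounds were then withheld for 7 days. The labels give no dose, vehicle, sex or age, and mention no cannula or injection in Control, so the route and the compound cannot be told apart. Each group had 3 libraries, made from total RNA with a kit that selects poly(A) RNA and keeps strand. Nothing in the labels says that the libraries came from separate rats, so the p-values measure only the spread between these libraries.

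The proteasome is the protease that degrades proteins tagged with ubiquitin in the cytosol and nucleus. Its core particle is a barrel of alpha and beta rings. Catalytic beta subunits carry the proteolytic sites, and the alpha rings gate the entrance. A regulatory particle caps the barrel: its ATPases unfold the substrate, and its other subunits bind ubiquitin chains and cut them off before the substrate is threaded in. Cells keep subunits in fixed proportions, and the transcription factor Nfe2l1 raises many proteasome genes together when proteolysis is impaired. Interferon induces replacement catalytic subunits that form the immunoproteasome, which microglia and immune cells make more of than neurons. In neurons proteasomes act in the cell body and at synapses, where protein turnover takes part in plasticity.

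Promoter sequences were taken from RefSeq for assembly GRCr8, each running from 250 bases before to 50 after the annotated start, and 44 of the 49 genes had an entry. The counts themselves carry no coordinates, and the submitters' processing notes name build rn6. Shown first are the promoters of the 3 constitutive catalytic subunits, whose values in each library are given below. Those of Psmb8 and Psmb10, the interferon-inducible counterparts of Psmb5 and Psmb7, follow. They lie at chr15:32047330-32047629 (minus strand) for Psmb5, chr10:55737638-55737937 (plus strand) for Psmb6, chr3:42827421-42827720 (minus strand) for Psmb7, chr20:4656982-4657281 (minus strand) for Psmb8 and chr19:50743243-50743542 (minus strand) for Psmb10, and all read 5′ to 3′ along the gene. In the first 3, capitals mark matches on either strand to TGACNNNGC (reverse complement GCNNNGTCA), the antioxidant response element bound by factors such as Nfe2l1 and Nfe2l2, and to CCAAT, the box bound by NF-Y, likewise on either strand. In Psmb8 and Psmb10, capitals mark the letters GAAA at both ends of a run with any 2 bases in the middle, read on either strand, the core of the element bound by interferon regulatory factors.
Psmb5: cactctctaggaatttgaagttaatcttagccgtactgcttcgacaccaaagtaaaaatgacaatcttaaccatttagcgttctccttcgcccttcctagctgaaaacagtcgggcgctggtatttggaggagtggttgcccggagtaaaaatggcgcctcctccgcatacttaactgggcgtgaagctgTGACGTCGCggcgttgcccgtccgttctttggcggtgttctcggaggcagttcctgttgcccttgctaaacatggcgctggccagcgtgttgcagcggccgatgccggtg
Psmb6: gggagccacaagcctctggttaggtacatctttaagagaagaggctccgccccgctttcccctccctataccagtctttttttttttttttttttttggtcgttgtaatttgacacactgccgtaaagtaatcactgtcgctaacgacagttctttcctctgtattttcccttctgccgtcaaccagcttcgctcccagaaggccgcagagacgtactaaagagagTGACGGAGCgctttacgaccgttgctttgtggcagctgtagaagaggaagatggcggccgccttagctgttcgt
Psmb7: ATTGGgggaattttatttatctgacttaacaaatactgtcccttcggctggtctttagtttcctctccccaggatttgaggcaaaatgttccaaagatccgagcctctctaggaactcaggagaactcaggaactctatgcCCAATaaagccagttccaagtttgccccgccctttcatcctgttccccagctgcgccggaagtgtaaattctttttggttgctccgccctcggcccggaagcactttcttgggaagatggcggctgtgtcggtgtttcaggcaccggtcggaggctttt
Psmb8: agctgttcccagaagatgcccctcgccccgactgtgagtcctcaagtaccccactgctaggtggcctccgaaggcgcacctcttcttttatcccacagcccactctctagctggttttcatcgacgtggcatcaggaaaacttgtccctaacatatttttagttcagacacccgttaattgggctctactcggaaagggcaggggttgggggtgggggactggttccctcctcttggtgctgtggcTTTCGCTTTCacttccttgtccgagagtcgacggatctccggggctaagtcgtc
Psmb10: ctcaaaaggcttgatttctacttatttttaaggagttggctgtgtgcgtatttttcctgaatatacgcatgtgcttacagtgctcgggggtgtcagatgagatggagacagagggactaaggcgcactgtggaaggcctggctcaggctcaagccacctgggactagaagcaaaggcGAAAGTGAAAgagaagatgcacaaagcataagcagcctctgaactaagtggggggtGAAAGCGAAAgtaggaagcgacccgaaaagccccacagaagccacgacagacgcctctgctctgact

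Psmb5 and Psmb6 each held 1 match to the antioxidant response element, beginning 60 and 24 bases before the start, and Psmb7 held CCAAT matches but none to that element. Over the 44 promoters, TGACNNNGC was found in 8 (18.2%), against 12.2% of all 27457 promoters of that length. CCAAT was found in 22 (50%), against 37.7%. The interferon element was found in 7 (15.9%), against 3.77%, and these were Psma4, Psmb3, Psmb8, Psmb10, Psmd7, Psme2 and Psmg4. Among the 12814 promoters of genes tested in this tissue, the shares were 14.1% for TGACNNNGC, 37.1% for CCAAT and 2.98% for the interferon element. Psmb8 also held a CCAAT match (73 bases before the start), which does not overlap its interferon element (4 bases before the start). Psmb9, the inducible counterpart of Psmb6, has a promoter entry and held no match to the interferon element. A match is a description of letters in this window and shows no binding.

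Most proteasome genes were abundant in this tissue. Levels between genes are compared in TPM, which is corrected for length, as the mean over all 9 libraries. Among the 7 alpha-ring genes the level ran between 66.3 TPM for Psma3 and 159 TPM for Psma7, and among the 7 constitutive beta-ring genes between 97.2 TPM for Psmb2 and 201 TPM for Psmb1. The 6 ATPase genes ran between 65.3 TPM for Psmc6 and 231 TPM for Psmc5, the highest level of the 49. The 11 other regulatory-particle genes ran between 48.8 TPM for Psmd11 and 124 TPM for Psmd6. The assembly chaperones stood lower, between 14.2 TPM for Psmd10 and 39.6 TPM for Psmg1. Of the inducible and tissue-restricted subunits Psmb10 had 23.0 TPM, and the 4 lowest genes of the 49 were Psmb9 at 4.81 TPM, Psmb8 at 3.38 TPM, the thymus subunit Psmb11 at 1.05 TPM and the testis subunit Psma8 at 0.362 TPM, the last from 4 to 19 counts per library. All 49 passed the filter on low counts. Psmc3ip is taken by the symbol rule but encodes a protein of meiotic recombination and is no subunit, at 5.83 TPM.

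**Figure D1:**
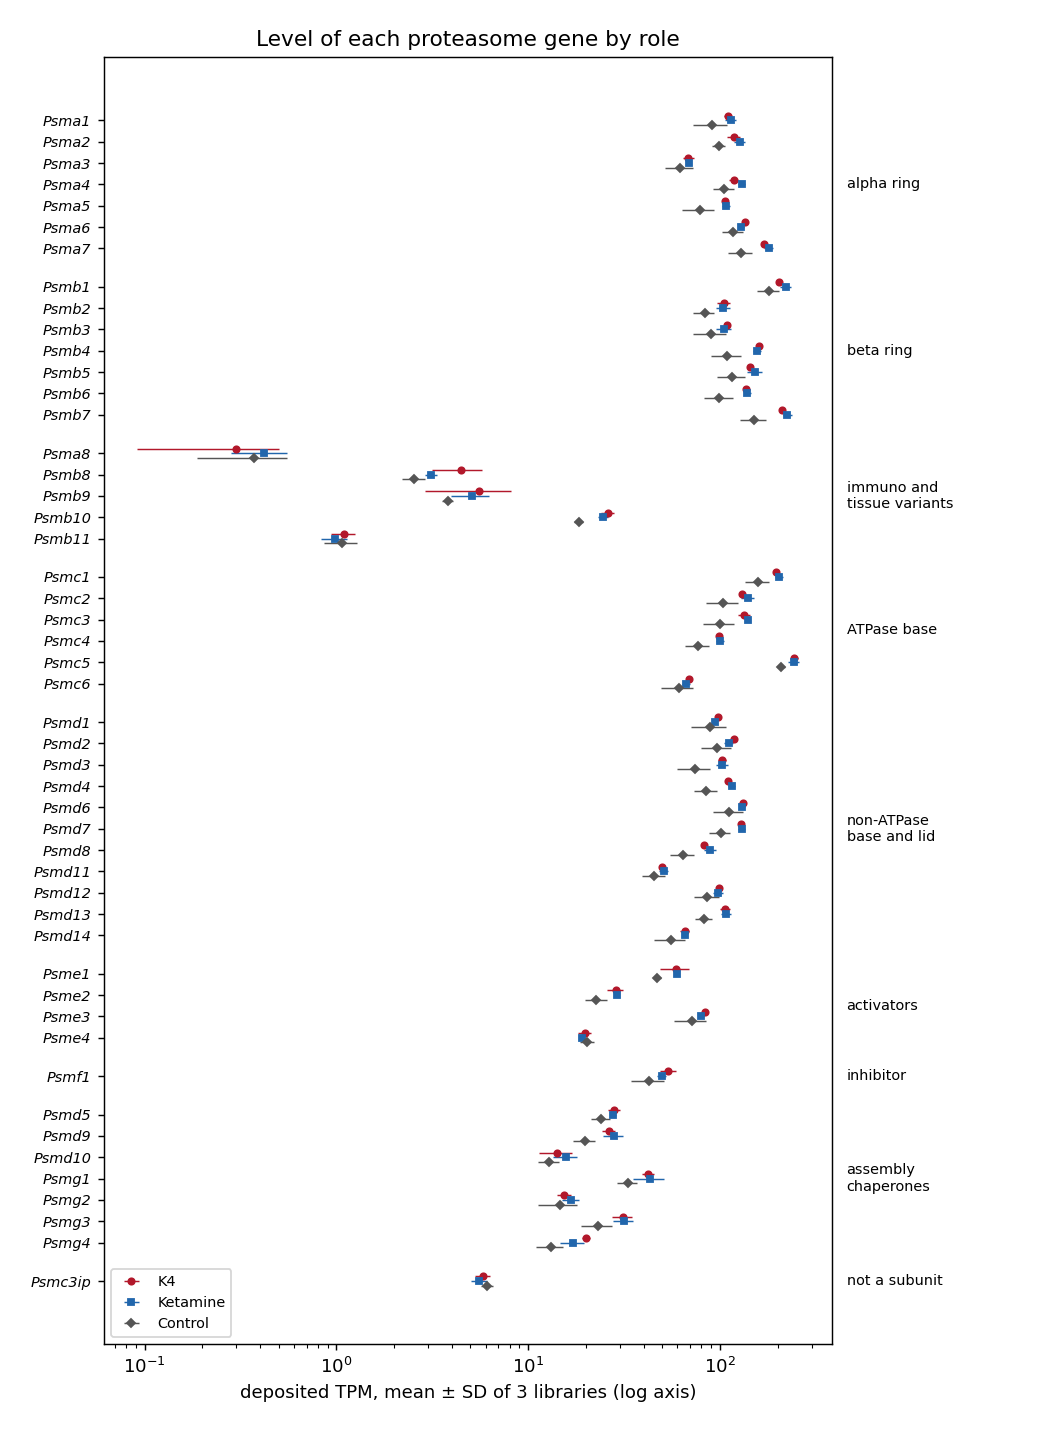
Level of each of the 49 genes in TPM (log axis), by role, with K4, Ketamine and Control marked by colour. Each point is the mean over the libraries of 1 group, with bars for the SD. Constitutive core and regulatory-particle subunits lie above the inducible and tissue-restricted subunits, and the means over the 9 libraries span 231 TPM for Psmc5 to 0.362 TPM for Psma8.

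Library totals were 28495399 to 32735785 counts in K4, 27122207 to 33837450 in Ketamine and 40863756 to 42731004 in Control. In Control the 13 protein genes of the mitochondrial genome took more of the counts, 11.6% to 19.0%, against 10.4% to 11.4% in K4 and 10.6% to 11.8% in Ketamine, which lowers the share left to every other gene there. Per-sample levels below are therefore given as CPM, counts scaled to the TMM-adjusted library size, which is not corrected for length. In TPM, which is not rescaled for this share, the 49 genes summed to 4274, 4264 and 4427 in K4, 4217, 4563 and 4414 in Ketamine and 3572, 2943 and 3935 in Control. In CPM they summed to 2816, 2962 and 2888 in K4, 2906, 3051 and 3073 in Ketamine and 2684, 2565 and 2726 in Control. On the scaled measure every Ketamine and K4 library was above all 3 Control libraries and the closest pair was K4 replicate 1 and Control replicate 3.

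Part of the proteasome family rose in each treated group, most of it subunits of the core and regulatory particles, and the activator Psme4 fell in Ketamine. Proteasome transcripts are shorter than most and the differences between these libraries ran with transcript length; with that trend removed 2 of the 49 were called in K4 and 5 in Ketamine, and Psme4 was at 0.01. With edgeR's quasi-likelihood test and Benjamini-Hochberg adjustment over all 18047 genes tested, 8 of the 49 rose and 0 fell in K4 (adjusted p below 0.05), where 6.07% of all genes were called, 2.27% higher and 3.8% lower (409 and 686 genes, or 527 and 563 with upper-quartile scaling). In Ketamine 19 rose and 1 fell, where 16.7% of all genes were called, 6.95% higher and 9.75% lower (1254 and 1759 genes, or 1587 and 1549 with upper-quartile scaling and 1698 and 984 by limma on log2(FPKM + 0.1)). The median log2 fold change of the 49 was 0.14 in K4 and 0.21 in Ketamine, beside medians of 0.00 over all genes tested in both. CPM in every K4 library exceeded every Control library for 23 of the 49 (13.3% of all genes), and in every Ketamine library for 25 (16.9% of all genes). It lay below Control in every library for 1, Psme4, in each comparison (14.2% of all genes in K4 and 18.1% in Ketamine). Both comparisons use the same 3 Control libraries, so their calls are not independent of each other. The K4 count fell to 3 without Control replicate 1, 2 without K4 replicate 1, 1 without K4 replicate 2 or K4 replicate 3, 4 without Ketamine replicate 2 and 5 without Ketamine replicate 3, and the Ketamine count of 20 fell to 9 without Ketamine replicate 2 and 12 without Ketamine replicate 3. In bulk tissue, fewer cells of a type and less RNA per cell cannot be told apart. The gene values that follow are from the fit without that removal, and each called gene is also given by its call with it.

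Most of the core-particle genes that rose were beta subunits. Of the 7 constitutive beta-ring genes, 3 rose in K4 and 6 in Ketamine, and of the 7 alpha-ring genes 2 and 3 did. For these and the roles below, 2.27% of all genes rose in K4 and 6.95% in Ketamine. Among all genes no longer than the members' median of 1.51 kb, 4.27% and 16.9% rose. The median length was 0.964 kb in the beta ring and 1.16 kb in the alpha ring. With the trend over length removed, 1 beta-ring gene and 0 alpha-ring genes were called in each comparison. Psmb7, the trypsin-like catalytic subunit, had 93.1, 102 and 98.1 CPM in the K4 libraries, 103, 111 and 108 CPM in Ketamine and 80.0, 74.9 and 80.6 CPM in Control (replicates 1 to 3 in that order, here and below). Every K4 and Ketamine library was above every Control library, and the log2 fold change was 0.31 (95% interval 0.19 to 0.44, adjusted p = 0.0127) in K4 and 0.45 (95% interval 0.33 to 0.58, adjusted p = 0.000603) in Ketamine, by edgeR with Benjamini-Hochberg adjustment as for every adjusted p here. Psmb6, the caspase-like subunit, had 48.7, 52.8 and 49.6 CPM in the K4 libraries, 51.9, 54.1 and 52.0 CPM in Ketamine and 43.6, 37.9 and 41.4 CPM in Control. It too was above Control in every library, by 0.30 (95% interval 0.16 to 0.44, adjusted p = 0.0229) in K4 and 0.36 (95% interval 0.22 to 0.50, adjusted p = 0.00338) in Ketamine. Psmb5, the chymotrypsin-like subunit, had CPM of 55.4, 60.9 and 59.3 in K4, 62.2, 68.6 and 59.8 in Ketamine and 48.6, 52.8 and 57.1 in Control. Its Ketamine libraries all lay above Control, by 0.26 (95% interval 0.10 to 0.43, adjusted p = 0.0282), whereas K4 replicate 1 was below Control replicate 3 and the K4 difference of 0.15 (adjusted p = 0.250) did not pass. With the trend over length removed, Psmb7 kept its call in Ketamine and lost it in K4 (adjusted p = 0.0650), Psmb6 lost both (0.197 in K4 and 0.174 in Ketamine), and Psmb5 lost its call in Ketamine (0.559).

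Psmb4, a non-catalytic beta subunit that helps join the core particle's rings, had the smallest p of the 49 in K4. It had 69.4, 75.4 and 67.4 CPM in the K4 libraries, 70.6, 72.7 and 68.5 CPM in Ketamine and 51.5, 51.6 and 58.1 CPM in Control. The groups did not overlap with Control, and the difference was 0.40 (95% interval 0.25 to 0.54, adjusted p = 0.00789) in K4 and 0.39 (95% interval 0.25 to 0.54, adjusted p = 0.00242) in Ketamine. Of the alpha ring, Psma7 had 72.9, 75.8 and 71.5 CPM in the K4 libraries, 76.5, 83.2 and 81.7 CPM in Ketamine and 64.4, 60.1 and 62.8 CPM in Control. All treated libraries exceeded all Control libraries, by 0.23 (95% interval 0.11 to 0.36, adjusted p = 0.0340) in K4 and 0.37 (95% interval 0.24 to 0.49, adjusted p = 0.00169) in Ketamine. Psma5 likewise had CPM of 49.9, 53.7 and 52.0 in K4, 52.2, 51.5 and 58.0 in Ketamine and 43.0, 39.2 and 45.5 in Control, with no overlap, 0.28 (95% interval 0.13 to 0.44, adjusted p = 0.0371) in K4 and 0.34 (95% interval 0.18 to 0.49, adjusted p = 0.00736) in Ketamine. In Ketamine, Psmb1 (0.19, adjusted p = 0.0458), Psma2 (0.23, adjusted p = 0.0484) and Psmb2 (0.20, adjusted p = 0.0499) also rose, close to the threshold. With the trend over length removed Psmb4 was called in K4 and not in Ketamine (adjusted p = 0.0751), and Psma7 (0.229 in K4 and 0.0540 in Ketamine), Psma5 (0.179 in K4 and 0.156 in Ketamine), Psmb1, Psma2 and Psmb2 were not called.

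**Figure D2:**
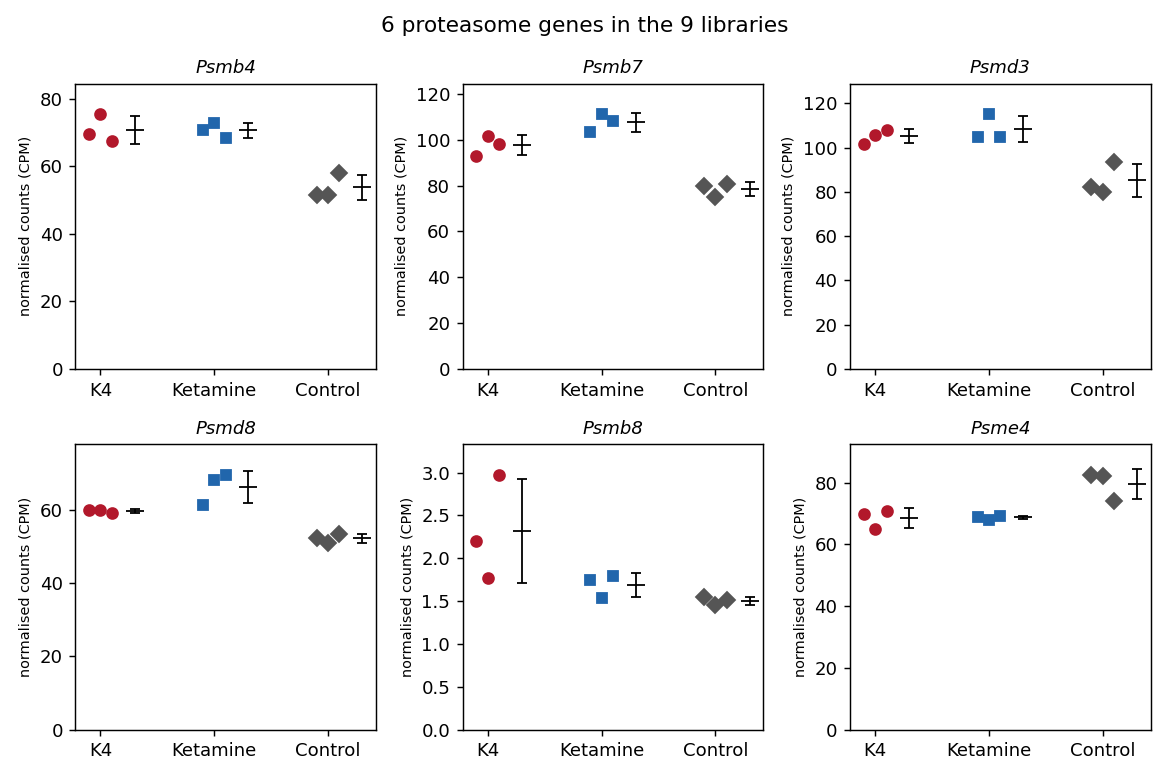
CPM of 6 proteasome genes in each library, with K4 left, Ketamine next and Control right, points for libraries and bars for the group mean ± SD (n = 3). Psmb4, Psmb7, Psmd3 and Psmd8 lie higher in every K4 and Ketamine library than in every Control library, Psme4 lies lower, and Psmb8 varies most within K4.

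Of the 5 inducible and tissue-restricted subunits, 0 were called in either comparison by edgeR or DESeq2, with 2 in K4 and 1 in Ketamine at an unadjusted p below 0.05 in each tool. On log2(FPKM + 0.1) limma called Psmb10 in both. With Control replicate 2 left out and no length offset, edgeR called Psmb10 in both as well. Psmb8, which replaces Psmb5 in the immunoproteasome, had CPM of 2.20, 1.77 and 2.97 in K4, 1.74, 1.53 and 1.79 in Ketamine and 1.55, 1.46 and 1.51 in Control. All K4 libraries were above Control, with wide spread, and the difference was 0.62 (95% interval 0.13 to 1.10, adjusted p = 0.120) in K4 and 0.17 (adjusted p = 0.657) in Ketamine. Its value is uncertain because a gene annotated as Psmb8-like, LOC103690099, took 24.7% to 37.8% of the counts of the pair in each library and reads could be split between them. Psmb9, the counterpart of Psmb6, had CPM of 2.23, 1.44 and 3.58 in K4, 2.75, 1.71 and 2.49 in Ketamine and 1.76, 2.05 and 1.83 in Control. These groups overlapped, at 0.35 (adjusted p = 0.507) in K4 and 0.30 (adjusted p = 0.518) in Ketamine. Psmb10, the counterpart of Psmb7, had CPM of 12.1, 11.9 and 13.2 in K4, 12.2, 11.1 and 13.0 in Ketamine and 9.09, 11.6 and 9.18 in Control. K4 libraries all exceeded Control, at 0.32 (adjusted p = 0.116) in K4, and the Ketamine libraries overlapped with it, at 0.29 (adjusted p = 0.109). Among genes of interferon signalling and antigen processing, 0 of 16 were called in K4 by edgeR, DESeq2 or limma (0 at an unadjusted p below 0.05 in edgeR and 1 in DESeq2), and in Ketamine 0 rose and 1 fell, Erap1, the peptide-trimming enzyme of the endoplasmic reticulum (−0.28, adjusted p = 0.0214). With the trend over length removed Erap1 was not called, at −0.19 (adjusted p = 0.114), and limma on FPKM called 0 of the list.

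Of the regulatory particle's 6 ATPases, 1 rose in K4 and 4 rose in Ketamine. Psmc3 had 98.9, 103 and 110.0 CPM in the K4 libraries, 115, 110.3 and 110.2 CPM in Ketamine and 85.1, 82.1 and 93.9 CPM in Control. Every treated library was above every Control library, by 0.26 (95% interval 0.12 to 0.40, adjusted p = 0.0363) in K4 and 0.36 (95% interval 0.22 to 0.50, adjusted p = 0.00304) in Ketamine. Psmc4, Psmc2 and Psmc1 rose in Ketamine as well, by 0.25 (adjusted p = 0.0104), 0.30 (adjusted p = 0.0165) and 0.24 (adjusted p = 0.0215). Of the 11 other base and lid subunits, 2 rose in K4 and 5 in Ketamine. Psmd3, a lid scaffold subunit, had 102, 106 and 108 CPM in the K4 libraries, 105, 115 and 105 CPM in Ketamine and 82.1, 80.0 and 93.6 CPM in Control. No treated library reached down to Control, and it rose by 0.30 (95% interval 0.16 to 0.45, adjusted p = 0.0250) in K4 and 0.35 (95% interval 0.20 to 0.49, adjusted p = 0.00534) in Ketamine. Psmd4, a ubiquitin receptor, had CPM of 68.5, 72.2 and 69.3 in K4, 73.2, 77.6 and 75.9 in Ketamine and 60.3, 59.8 and 61.9 in Control. It rose by 0.21 (95% interval 0.09 to 0.32, adjusted p = 0.0413) in K4 and 0.32 (95% interval 0.20 to 0.43, adjusted p = 0.00248) in Ketamine, again with no overlap. With the trend over length removed Psmd3 was called in both comparisons, Psmc3 and Psmd4 in Ketamine alone (adjusted p in K4 0.115 for Psmc3 and 0.174 for Psmd4), and Psmc4, Psmc2 and Psmc1 in neither.

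Psmd8, a lid subunit, had CPM of 60.1, 59.9 and 59.1 in K4, 61.4, 68.1 and 69.6 in Ketamine and 52.3, 51.1 and 53.4 in Control. All treated libraries were above Control. It rose in Ketamine by 0.34 (95% interval 0.21 to 0.47, adjusted p = 0.00289), and in K4 the difference of 0.19 (adjusted p = 0.0786) did not pass. Psmd13 and Psmd7 also rose in Ketamine, by 0.26 (adjusted p = 0.0116) and 0.24 (adjusted p = 0.0168). With the trend over length removed Psmd8 was called in Ketamine, and Psmd13 and Psmd7 were not. Psmd14, the deubiquitinase that removes the chain from the substrate, had CPM of 44.9, 52.2 and 44.7 in K4, 49.1, 48.5 and 48.5 in Ketamine and 45.0, 41.8 and 47.9 in Control. Its groups overlapped with Control in K4, and neither 0.07 (adjusted p = 0.591) in K4 nor 0.12 (adjusted p = 0.308) in Ketamine passed.

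Of the 4 activators, 0 were called in K4 by edgeR (1 at an unadjusted p below 0.05, and 1 by DESeq2, Psme4, lower), and in Ketamine 0 rose and 1 fell (limma on FPKM called Psme2 alone, higher). Psme4, a large nuclear cap of the core particle, had 69.8, 64.9 and 70.9 CPM in the K4 libraries, 69.0, 68.1 and 69.2 CPM in Ketamine and 82.5, 82.2 and 74.1 CPM in Control. All treated libraries were below all Control libraries, and the log2 fold change was −0.21 (95% interval −0.34 to −0.08, adjusted p = 0.0319) in Ketamine, or 0.01 once the trend over length described below was removed. In K4 its difference was −0.22 (adjusted p = 0.0536). At 8.33 kb its transcript is the longest of the 49. Psme1, which forms the interferon-inducible ring activator with Psme2, had CPM of 26.0, 25.2 and 32.9 in K4, 29.4, 29.3 and 29.9 in Ketamine and 25.6, 27.3 and 23.3 in Control. Psme2 had CPM of 17.4, 17.8 and 19.8 in K4, 19.9, 18.4 and 19.6 in Ketamine and 17.1, 15.9 and 16.0 in Control. Psme2 was above Control in every treated library and Psme1 in every Ketamine library, and neither passed. The differences were 0.14 (adjusted p = 0.417) in K4 and 0.22 (adjusted p = 0.147) in Ketamine for Psme1, and 0.16 (adjusted p = 0.258) in K4 and 0.24 (adjusted p = 0.0660) in Ketamine for Psme2. The nuclear activator Psme3 had CPM of 104, 109 and 102 in K4, 100.2, 103 and 106 in Ketamine and 101, 91.3 and 106 in Control, which overlapped between groups, at 0.08 (adjusted p = 0.502) in K4 and 0.05 (adjusted p = 0.599) in Ketamine. Psmf1, named as a proteasome inhibitor, had CPM of 35.1, 33.3 and 37.9 in K4, 32.1, 34.8 and 35.2 in Ketamine and 30.9, 29.4 and 34.4 in Control, at 0.17 (adjusted p = 0.216) in K4 and 0.11 (adjusted p = 0.375) in Ketamine.

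Of the 7 assembly chaperones, 0 were called in K4 by edgeR or DESeq2 (3 at an unadjusted p below 0.05 in edgeR and 2 in DESeq2, and 1 called by limma on FPKM, Psmg4), and 1 rose in Ketamine. Psmd9, a chaperone of the ATPase ring, had CPM of 15.1, 18.7 and 16.9 in K4, 17.6, 20.7 and 17.3 in Ketamine and 14.5, 13.9 and 14.2 in Control. Every treated library was above Control, and it rose by 0.38 (95% interval 0.17 to 0.60, adjusted p = 0.0211) in Ketamine, against 0.25 (adjusted p = 0.154) in K4. That call was lost with the trend over length removed (adjusted p = 0.119). The other chaperones of that ring did not pass. Psmd5 had CPM of 28.7, 26.3 and 27.0 in K4, 28.7, 26.3 and 28.8 in Ketamine and 26.2, 26.8 and 26.4 in Control, at 0.05 (adjusted p = 0.725) in K4 and 0.08 (adjusted p = 0.478) in Ketamine. Psmd10 had CPM of 4.30, 3.27 and 3.21 in K4, 3.49, 4.56 and 4.28 in Ketamine and 3.53, 3.69 and 3.74 in Control, at −0.02 (adjusted p = 0.958) in K4 and 0.17 (adjusted p = 0.536) in Ketamine. Both overlapped with Control in both comparisons. Psmg1, which pairs with Psmg2 in building the alpha ring, had CPM of 19.3, 22.4 and 22.7 in K4, 18.3, 26.0 and 23.1 in Ketamine and 18.5, 19.2 and 19.0 in Control. Psmg2 had CPM of 7.54, 7.76 and 8.41 in K4, 9.51, 7.62 and 9.35 in Ketamine and 8.14, 7.54 and 9.47 in Control. Neither passed, with Psmg1 at 0.18 (adjusted p = 0.357) in K4 and 0.25 (adjusted p = 0.157) in Ketamine, and Psmg2 at −0.09 (adjusted p = 0.734) in K4 and 0.08 (adjusted p = 0.729) in Ketamine. Psmg3, which forms another such pair with Psmg4, had CPM of 14.0, 11.7 and 11.7 in K4, 12.1, 14.6 and 12.5 in Ketamine and 10.2, 9.91 and 11.2 in Control. Psmg3 was above Control in all treated libraries, at 0.25 (adjusted p = 0.188) in K4 and 0.32 (adjusted p = 0.0637) in Ketamine, and did not pass. Psmg4 had CPM of 5.73, 5.77 and 5.98 in K4, 5.81, 5.81 and 4.74 in Ketamine and 4.86, 4.11 and 4.70 in Control. Its K4 libraries were all above Control and its Ketamine libraries overlapped with Control, and it differed by 0.35 (adjusted p = 0.137) in K4 and 0.26 (adjusted p = 0.221) in Ketamine.

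**Figure D3:**
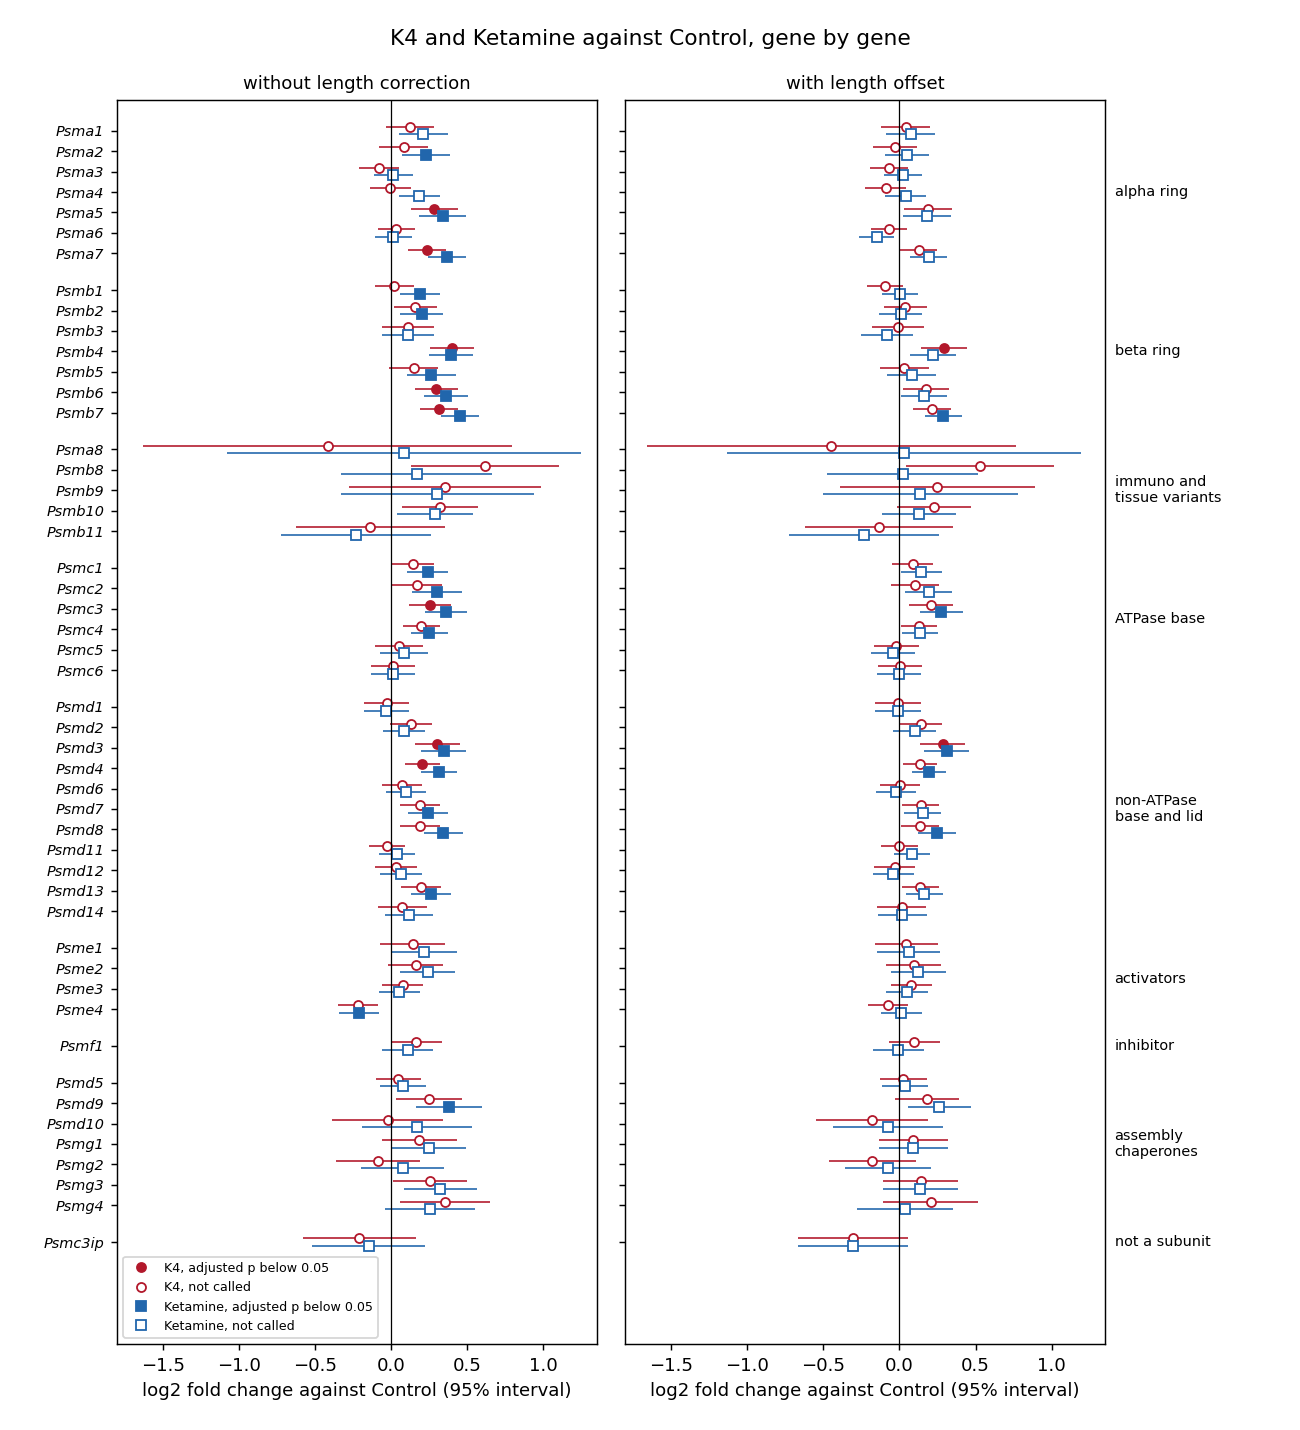
Log2 fold change against Control of each of the 49 genes, by role, in K4 and in Ketamine, with bars for the 95% interval and filled points for an adjusted p below 0.05. Called genes lie in the alpha ring, beta ring, ATPases and other regulatory-particle subunits, apart from Psmd9 among the chaperones and Psme4, which lies below 0 in this fit and at 0.01 in Ketamine once the trend over length is removed.

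K4 against Ketamine gave no call at a proteasome gene. With edgeR's test 0 of the 49 and 0 of all genes had an adjusted p below 0.05 (0% of all genes), and at an unadjusted p below 0.05 there were 5 of the 49, beside 9.13% of all genes. DESeq2 called 66 genes and 0 of the 49. The 5 were Psma4, Psmb1, Psmd8, Psmb7 and Psma7, and all 5 were lower in K4. Psma4, an alpha-ring subunit, had 59.5, 64.2 and 65.4 CPM in the K4 libraries, 72.8, 67.2 and 75.7 CPM in Ketamine and 64.4, 62.6 and 62.8 CPM in Control. Every K4 library was below every Ketamine library, and the log2 difference, K4 over Ketamine, was −0.19 (95% interval −0.32 to −0.06, adjusted p = 0.388). The gene Psmb1, a non-catalytic beta subunit, had CPM of 78.6, 84.4 and 82.0 in K4, 85.1, 95.5 and 94.8 in Ketamine and 80.8, 78.8 and 81.8 in Control. It too was lower in every K4 library than in every Ketamine library, at a log2 difference of −0.17 (95% interval −0.30 to −0.04, adjusted p = 0.441), and Psmd8 was at −0.15 (95% interval −0.28 to −0.02, adjusted p = 0.490). CPM of all K4 libraries lay below all Ketamine libraries for 8 of the 49 and above for 0, where the shares of all genes were 8.29% and 9.49%. The median difference was −0.06, beside 0.00 over all genes. Among 2877 genes with lengths between the quartiles of the 49 it was −0.05. Among the 614 of these that were also of like level it was −0.07. Over the 31 core and regulatory-particle subunits the differences lay between −0.19 and 0.04, and their 95% intervals reached no lower than −0.32 and no higher than 0.18. Psmb4 differed by 0.00 (95% interval −0.14 to 0.15, adjusted p = 0.993).

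Transcript length runs with these differences. Length is the effective value implied by the deposited counts and FPKM. The 49 genes had a median of 1.51 kb, against 2.93 kb over all genes tested, and between them they ran from 0.604 kb for Psmd10 to 8.33 kb for Psme4. Among all genes the shorter ones were higher in both treated groups. In the shortest decile of genes tested, which holds 17 of the 49, all genes had a median log2 fold change of 0.13 in K4 and 0.21 in Ketamine, beside 0.16 and 0.26 for the 17. In the next decile, with 14 of the 49, all genes had 0.08 in K4 and 0.14 in Ketamine, beside 0.17 and 0.23 for the 14. In the decile after that, with 7 of the 49, all genes had 0.06 and 0.10, beside 0.19 and 0.24 for the 7. In the 4 deciles that follow, with 2, 2, 5 and 1 of the 49, all genes in K4 had 0.04, 0.02, 0.00 and −0.03, beside −0.18, 0.16, −0.03 and −0.03 for the members, so the members lay below all genes in the first of these deciles and in the decile with 5 of them. In Ketamine all genes had 0.07, 0.03, 0.00 and −0.04, beside 0.08, 0.18, 0.01 and 0.04 for the members. In the longest decile, which holds Psme4 alone of the 49, all genes had −0.15 in K4 and −0.23 in Ketamine, beside −0.22 and −0.21 for Psme4. Across the 49 genes the log2 fold change changed per doubling of length by −0.11 in K4 and −0.12 in Ketamine, with Pearson's r of −0.43 and −0.55. These are descriptions across genes that share libraries, and genes are not independent replicates.

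**Figure D4:**
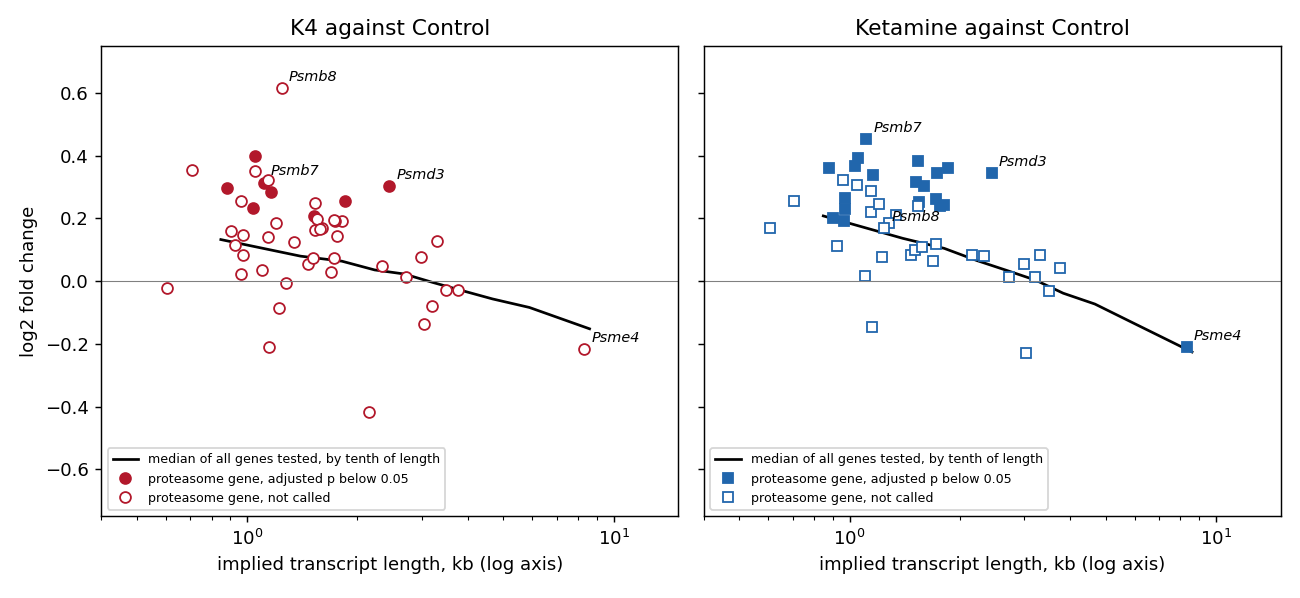
Log2 fold change against Control over transcript length (log axis, kb) in K4, left, and Ketamine, right, with 1 point for each of the 49 proteasome genes and the median of all genes tested in each decile of length as a line. The line runs from 0.13 to −0.15 in K4 and from 0.21 to −0.23 in Ketamine, and most of the short proteasome genes lie on or above it.

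Genes of like length and level give a closer background for the counts of calls. Of 614 genes whose length and mean log2 CPM both lay between the quartiles of the 49, 7.49% rose in K4 and 32.1% in Ketamine, beside 16.3% and 38.8% of the 49. With the length offset below, 1.63% and 6.03% of those 614 rose, beside 4.08% and 10.2% of the 49. Their median log2 fold changes were 0.09 in K4 and 0.16 in Ketamine, beside 0.14 and 0.21 for the 49. The 614 lie between 1.10 and 1.81 kb, while the 49 also hold shorter and longer genes, so the sets differ in their spread of length and level. Shorter genes were higher among all genes, and the members within these ranges were not counted apart. When each library's trend over length was removed with an offset in the same fit, 2 of the 49 rose in K4, where 2.38% of all genes were called and 1.2% rose, and 5 rose in Ketamine, where 7.6% were called, 3.23% higher and 4.37% lower. The 2 in K4 were Psmd3 (0.28, adjusted p = 0.0477) and Psmb4 (0.29, adjusted p = 0.0496). The 5 in Ketamine were Psmb7 (0.29, adjusted p = 0.0108), Psmd3 (0.31, adjusted p = 0.0176), Psmd8 (0.24, adjusted p = 0.0237), Psmc3 (0.28, adjusted p = 0.0264) and Psmd4 (0.20, adjusted p = 0.0380). Psme4 no longer fell, at 0.01 (adjusted p = 0.927) in Ketamine and −0.07 (adjusted p = 0.550) in K4. The median over the 49 was then 0.08 in K4 and 0.06 in Ketamine, beside 0.01 over all genes in both, and K4 against Ketamine gave −0.01 with 0 calls (1 of the 49 at an unadjusted p below 0.05, beside 7.54% of all genes). An offset also removes any difference between the groups that itself runs with length, so which of the fits is nearer to the RNA in the tissue was not tested.

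Control replicate 2 bears on what remains in K4, and less on what remains in Ketamine. With the offset, the median deviation of the 49 genes from their own mean over the 9 libraries was 0.00, 0.04 and 0.01 in K4, 0.02, 0.01 and 0.05 in Ketamine, and −0.02, −0.13 and −0.01 in Control. Control replicate 2 stood lowest and the other 2 Control libraries lay close to K4. The same library had the highest Control sum of astrocyte, microglial, oligodendrocyte, oligodendrocyte precursor and endothelial and mural markers, at 4163, 428, 2735, 315 and 378 CPM, against 2964, 319, 1644, 223 and 310.4 CPM in Control replicate 1 and 2602, 299, 1865, 199.7 and 258 CPM in Control replicate 3. Its sum of cortical excitatory neuron markers was the highest in Control as well, at 3297 CPM against 3079 in Control replicate 1 and 3154 in Control replicate 3. So were those of striatal neuron markers (86.7 against 77.5 and 78.9 CPM) and of blood and lymphocyte markers (81.4 against 44.6 and 44.3 CPM). Its sum of inhibitory neuron markers was the lowest, at 406 against 453 and 462 CPM. The part of these in the proteasome values was not tested. Without the offset the medians were 0.00, 0.04 and 0.02 in K4, 0.04, 0.08 and 0.11 in Ketamine, and −0.10, −0.16 and −0.09 in Control, so all 3 Control libraries stood below the rest. With the offset and without Control replicate 2, a setting chosen after seeing the data, 0 of the 49 were called in K4 (9 at an unadjusted p below 0.05), where 4.55% of all genes were called. In Ketamine Psmb7, Psmc3, Psmd3 and Psmd8 were called under that setting. The median log2 fold change of the 49 with the offset went from 0.08 to 0.03 in K4 when that library was left out. In Ketamine it was 0.06 with and without it. Without the offset, leaving out Control replicate 2 left 7 calls in K4 and the median at 0.12.

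**Figure D5:**
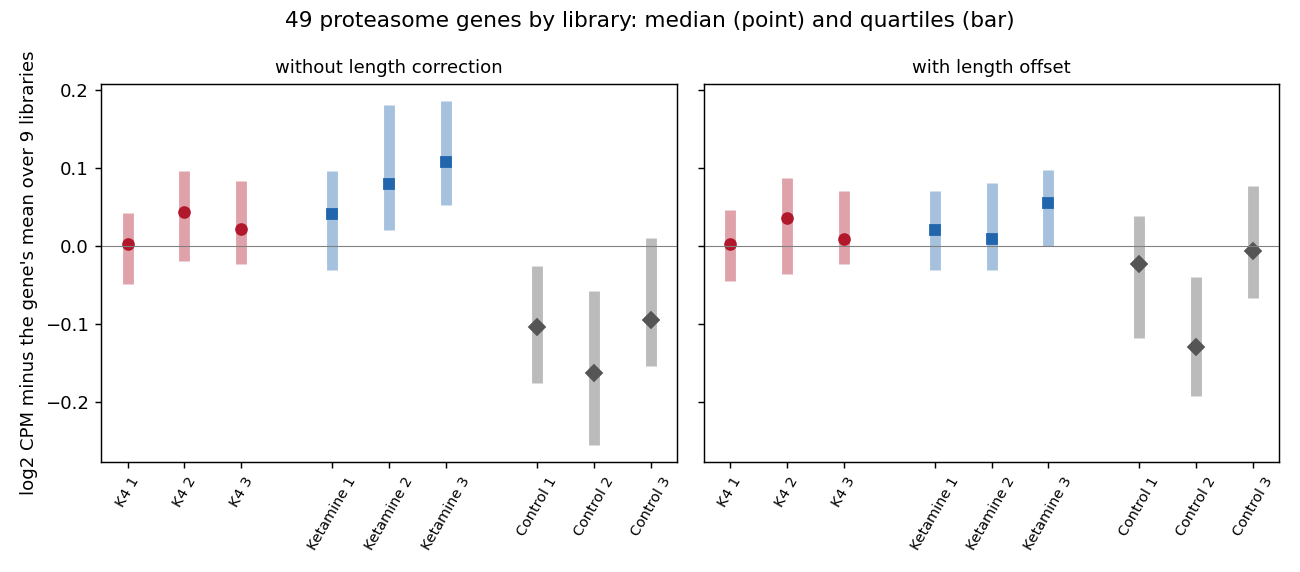
Median deviation of the 49 genes from their own mean over the 9 libraries (log2 CPM), for each library in K4, Ketamine and Control, before and after the trend over length was removed, with bars from the first to the last quartile of the 49. Before removal the 3 Control libraries lie lowest, and after it only Control replicate 2, at −0.13, stands apart.

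Leaving out each library in turn, without the offset, Psmb4 was called in K4 in all 9 repeats and Psmb7 in 7, while Psmd4 was called in 2. In Ketamine Psma5, Psma7, Psmb4, Psmb6, Psmb7, Psmc3, Psmd3, Psmd4 and Psmd8 were called in all 9, and Psmb2 in 0. The call of Psme4 in Ketamine was lost without Control replicate 1, Control replicate 2 or any 1 of the Ketamine replicates (adjusted p between 0.0549 and 0.132). Psmb7, Psmc3, Psmd3 and Psmd8 were called in Ketamine under each of the 12 other planned settings too.

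Of 13 partners of the proteasome without a Psm symbol, 0 were called in K4 by edgeR (4 at an unadjusted p below 0.05, and 1 higher and 1 lower by DESeq2), and in Ketamine 5 rose and 1 fell. Shfm1, the small lid subunit that RefSeq names Sem1, had 30.8, 29.0 and 29.5 CPM in the K4 libraries, 34.9, 36.7 and 39.6 CPM in Ketamine and 27.0, 24.9 and 24.4 CPM in Control. Every treated library was above Control, by 0.54 (adjusted p = 0.000677) in Ketamine and 0.23 (adjusted p = 0.0813) in K4. Ubl7, a ubiquitin-like domain protein, rose in Ketamine by 0.32 (adjusted p = 0.00537). Adrm1, a ubiquitin receptor of the regulatory particle, rose by 0.27 (adjusted p = 0.0184), and Akirin2, which in human cells brings proteasomes into the nucleus, by 0.25 (adjusted p = 0.0309). The gene that fell was RGD1306148, named Ecpas in RefSeq, a proteasome-binding scaffold (−0.18, adjusted p = 0.0417). With the length offset Shfm1 (0.34, adjusted p = 0.0143) and Ubl7 (0.34, adjusted p = 0.00854) were still called in Ketamine. Adrm1, Akirin2 and RGD1306148 were not, at 0.16 (adjusted p = 0.170), 0.15 (adjusted p = 0.196) and 0.08 (adjusted p = 0.447). The maturation protein Pomp was not called, at 0.19 (adjusted p = 0.124) in Ketamine and 0.08 (adjusted p = 0.576) in K4.

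Genes that supply and attach ubiquitin moved in both directions. Of 24 tested, 3 rose and 2 fell in K4, and 3 rose and 4 fell in Ketamine. The polyubiquitin gene Ubb rose by 0.25 (adjusted p = 0.0395) in K4 and 0.37 (adjusted p = 0.00314) in Ketamine, and Stub1, a chaperone-linked ubiquitin ligase, by 0.27 (adjusted p = 0.0177) and 0.38 (adjusted p = 0.00106). The ligase Ube3a, which neurons express from the maternal allele in mice and humans, had 38.9, 42.0 and 44.9 CPM in the K4 libraries, 41.8, 39.7 and 36.5 CPM in Ketamine and 58.2, 55.4 and 56.7 CPM in Control. It was below Control in every treated library, at −0.44 (adjusted p = 0.00658) in K4 and −0.53 (adjusted p = 0.000688) in Ketamine. In Ketamine the ligase Huwe1 (−0.29, adjusted p = 0.00742) and Nploc4, a cofactor of the segregase Vcp (−0.25, adjusted p = 0.00850), also fell. With the length offset Huwe1 and Nploc4 were not called in Ketamine, at 0.04 (adjusted p = 0.691) and −0.18 (adjusted p = 0.0548), nor was Ubb, at 0.17 (adjusted p = 0.192) in K4 and 0.22 (adjusted p = 0.0642) in Ketamine. Stub1 was called in Ketamine, at 0.25 (adjusted p = 0.0146), and not in K4, at 0.19 (adjusted p = 0.0751). Ube3a was called in both comparisons, at −0.34 (adjusted p = 0.0261) in K4 and −0.37 (adjusted p = 0.00727) in Ketamine.

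Of the 12 genes that control proteasome transcription, 0 were called in K4 by edgeR (1 at an unadjusted p below 0.05, and 1 by DESeq2, Nfe2l2, lower), and in Ketamine 0 rose and 1 fell. That gene was Mafg, a small Maf partner of the Nfe2l factors (−0.21, adjusted p = 0.0363), with 7.81 kb of transcript and an adjusted p of 0.992 once the trend over length was removed. Nfe2l1 itself differed by −0.06 (adjusted p = 0.545) in K4 and −0.08 (adjusted p = 0.356) in Ketamine, and Nfe2l2, the oxidative stress factor, by −0.46 (adjusted p = 0.0957) and −0.44 (adjusted p = 0.0673), none of which passed. The 8 proteasome genes with the antioxidant response element in their promoter had a median log2 fold change of 0.15 in K4 and 0.23 in Ketamine, beside 0.15 and 0.22 for the 36 without it. Of the 8, 5 rose in Ketamine, and of the 36, 13 did. With the length offset 1 of the 8 and 4 of the 36 rose in Ketamine. The medians were then 0.04 in K4 and 0.05 in Ketamine for the 8, beside 0.09 and 0.08 for the 36.

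Markers of other cell types also differed between the groups, and their part in the proteasome results was not tested. The 6 astrocyte markers summed to 2219 to 2452 CPM in K4, 1999 to 2186 in Ketamine and 2602 to 4163 in Control, with 2 lower in K4 and 5 in Ketamine, and the 6 endothelial and mural markers to 214 to 246 CPM in K4, 171 to 201 in Ketamine and 258 to 378 in Control, with 3 lower in each. The 4 markers of oligodendrocyte precursors summed to 174 to 210.4 CPM in K4, 163 to 173 in Ketamine and 199.7 to 315 in Control, with 1 lower in K4 and 3 in Ketamine. The 10 microglial markers summed to 306 to 322 CPM in K4, 280.1 to 299 in Ketamine and 299 to 428 in Control, with 1 lower in K4 and 3 in Ketamine. In each of these 4 lists Control replicate 2 alone set the top of the Control range, and without it the highest Control sum was 2964 CPM for astrocytes, 310.4 for endothelial and mural cells, 223 for oligodendrocyte precursors and 319 for microglia. With the length offset the lower calls in K4 and Ketamine were 1 and 2 for astrocytes, 2 and 3 for endothelial and mural cells, 0 and 1 for oligodendrocyte precursors (whose median transcript length was 8.33 kb) and 1 and 2 for microglia. Sums of neuronal markers lay closer together, while single neuronal markers moved in both directions. The 6 markers of cortical excitatory neurons summed to 3153 to 3296 CPM in K4, 3168 to 3323 in Ketamine and 3079 to 3297 in Control. Of these, 0 were called in K4 (3 at an unadjusted p below 0.05, and 1 higher and 1 lower by DESeq2). In Ketamine 1 was higher and 2 were lower, both with and without the length offset. Without it, log2 fold changes in Ketamine ran from −0.52 to 0.46 among these markers and from −0.63 to 0.36 among those of inhibitory neurons. The 6 of inhibitory neurons summed to 423 to 458 CPM in K4, 411 to 446 in Ketamine and 406 to 462 in Control, with 0 called in K4 (3 at an unadjusted p below 0.05, and 1 lower by DESeq2) and 1 higher and 1 lower in Ketamine. The cortical markers Slc17a7, Neurod6 and Tbr1 were present in every library, with Tbr1 the lowest of these at 1041 to 1916 counts. The 6 oligodendrocyte markers summed to 2131 to 2907 CPM in K4, 1475 to 1918 in Ketamine and 1644 to 2735 in Control, with 1 higher in K4, and the 5 markers of striatal neurons to 92.1 to 109 CPM in K4, 89.8 to 94.3 in Ketamine and 77.5 to 86.7 in Control, with 2 higher in K4 and 1 in Ketamine. With the offset 0 oligodendrocyte markers (2 at an unadjusted p below 0.05) and 1 striatal marker were called in K4, and in Ketamine 0 of either list (0 and 1 at an unadjusted p below 0.05) and 0 higher and 1 lower among the inhibitory markers. The choroid plexus marker Folr1 had 0 counts in every library and Ttr had 0 to 5, and the B cell marker Ms4a1 had 0 to 6. Of the choroid plexus, ependyma, blood and lymphocyte markers tested, 0 were called in either comparison by edgeR or DESeq2 (1 at an unadjusted p below 0.05, in Ketamine).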

How the data were processed

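RNA-seq libraries of 9 rat mPFC samples were compared in 3 groups of 3, taken from the labels. The submitters' processing notes name, with no roles or order, bcl2fastq 2.20.0, Trimmomatic, HISAT2 2.1.0, StringTie 2.1.3b and genome build rn6. Raw read counts per gene were deposited in 1 table for all libraries. Which tool counted them, and with what strand setting, is not given in the sources used here. Normalised levels were deposited by the authors as FPKM and TPM, 1 file per library, per the file headers.

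Counts were fitted in R 4.3.3 with edgeR 4.0.16 (TMM, filterByExpr by group with minimum count 10 and minimum total 15, robust quasi-likelihood F test, 3 groups, 9 libraries), and adjusted by Benjamini-Hochberg over 18047 genes. The common biological coefficient of variation was 10.2%, and intervals cover 95%. Effective transcript length was the median over libraries of count over FPKM and total, from counts of at least 10. The length offset was each library's lowess trend (span 0.3) of log2 CPM deviations over log2 length. The test was tried on simulated counts. Of 50 genes changed 1.25-fold it recovered 9 in K4 against Control, 8 in Ketamine against Control and 6 in K4 against Ketamine. Of genes changed 2-fold it recovered 77.6%, 78% and 76% in that order. A gene that was not called may therefore still differ by a small fold. Alternatives were DESeq2 1.42.0, limma 3.58.1 on log2(FPKM + 0.1) for genes with a mean FPKM of at least 1 or without that filter, log2(FPKM + 1), other scalings and filters, the replicate number as a block, the 2 groups alone, and each library left out.

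The genes and lists were chosen with earlier results of these data known. Values per library are given for catalytic and inducible subunits, activators, inhibitor, Psmd4, Psmd14, chaperones and up to 8 called genes with the smallest p per comparison and direction, or 3 where none was called. Up to 4 called genes with the smallest p are named per pathway list. Genes named beyond this were chosen after their values were seen. Some genes of the pathway and marker lists are counted but not reported by name here. No sequence table of rat proteins was used here.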

Additional observations from a re-analysis of the deposited data

How the results depend on the processing

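Of 49 genes, 8 were called in K4 and 20 in Ketamine. In K4 the count was 13 with DESeq2, 0 on log2(FPKM + 0.1) without a filter (24 at an unadjusted p below 0.05), 2 with the length offset, 2 with the K4 and Control libraries alone and 1 with the replicate block and offset. In Ketamine it was 13 on log2(FPKM + 0.1) without a filter, 5 with the offset and 4 with the block and offset. With the offset and without Control replicate 2, a setting chosen after seeing the data, it was 0 in K4 and 4 in Ketamine. Leaving out 1 library at a time gave 1 to 10 in K4 and 9 to 20 in Ketamine. K4 counts were 3 without Control replicate 1, 2 without K4 replicate 1, 1 without K4 replicate 2 or 3, 4 without Ketamine replicate 2 and 5 without Ketamine replicate 3, and Ketamine counts were 9 without Ketamine replicate 2 and 12 without Ketamine replicate 3. K4 against Ketamine gave 0 calls under every setting run. The cause of these shifts was not tested.

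The median log2 fold change in K4 was 0.20 on log2(FPKM + 0.1), 0.19 without its filter, 0.20 on log2(FPKM + 1), 0.0776 with the offset, 0.0796 with block and offset, and 0.0312 with the offset and without Control replicate 2. In Ketamine it was 0.27, 0.27, 0.26, 0.0596, 0.06003 and 0.0644 in that order. All genes moved on FPKM as well, with medians on log2(FPKM + 0.1) of 0.051 in K4 and 0.055 in Ketamine. The proteasome median minus that of all genes was there 0.151 in K4 and 0.218 in Ketamine. By edgeR without the offset this difference was 0.147 and 0.214. Without the FPKM filter it was 0.174 and 0.248, and on log2(FPKM + 1) it was 0.153 and 0.212. Leaving out 1 library gave a proteasome median of 0.12 to 0.18 in K4 and 0.17 to 0.23 in Ketamine. For K4 against Ketamine the median was −0.0108 with the offset, −0.0102 with block and offset, −0.0117 with the offset and without Control replicate 2, and −0.08 to −0.04 leaving out 1 library. Psme4 changed sign in Ketamine, at 0.0133 with the offset, 0.0136 with block and offset and 0.0383 with the offset and without Control replicate 2, and Mafg in Ketamine at 0.0605 under the last of these.

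Over all genes, calls in K4 were 1095, and 430 with the offset, 1883 with DESeq2, 34 on unfiltered FPKM, 452 with the 2 groups alone and 174 to 1548 leaving out 1 library. In Ketamine they were 3013, and 1372 with the offset, 1631 on unfiltered FPKM and 1177 to 3191 leaving out 1 library. Libraries of equal replicate number had weak positive correlations of their deviations from the group mean, from 0.0024 to 0.106. Those of unequal number ran from −0.157 to 0.0688 and were mostly negative, though K4 replicate 3 correlated best in Control with replicate 1. Deviations from a group mean cancel within the group, so negative values for unequal numbers go with positive values for equal ones and add nothing separate. Whether equal numbers mark paired libraries was not tested. With the replicate block 7 of the 49 were called in K4, 20 in Ketamine and 0 in K4 against Ketamine. Counts under 20 in Psma8 limit what can be seen there.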

Other observations

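Genes annotated as copies of proteasome genes were counted separately in the deposited table. LOC103690099, annotated as Psmb8-like, had 1.34, 0.978 and 1.49 CPM in K4, 0.642, 0.712 and 0.839 CPM in Ketamine and 0.580, 0.728 and 0.495 CPM in Control, from 20 to 45 counts per library. Its K4 libraries were above all others. The log2 fold change in K4 was 1.07 (95% interval 0.40 to 1.74, edgeR, Benjamini-Hochberg adjusted p = 0.0574), which did not pass, and K4 over Ketamine it was 0.79 (95% interval 0.12 to 1.45, adjusted p = 0.489). Psmb8 and this copy summed to 3.53, 2.75 and 4.46 CPM in K4, 2.38, 2.24 and 2.63 CPM in Ketamine and 2.13, 2.18 and 2.00 CPM in Control.

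LOC100360846, annotated as Psmb6-like, took 1.37% to 2.73% of the counts it shared with Psmb6, and LOC102552889, annotated as Psmd12-like, took 2.82% to 4.66% of those it shared with Psmd12. The maturation protein gene Pomp had 664 to 968 counts per library, and a Pomp-like gene, LOC100911238, had 729 to 1025, so reads of the 2 could be split between them. In CPM the Pomp-like gene had 27.3, 25.9 and 24.6 in K4, 26.5, 29.6 and 26.4 in Ketamine and 24.8, 24.5 and 22.3 in Control. Its Ketamine libraries were above Control, at a log2 fold change of 0.20 (adjusted p = 0.0923, edgeR with Benjamini-Hochberg adjustment), which did not pass.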
